A study of Mus musculus with 18 samples.

Results

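ATAC-seq was used to follow the effect of IL-10 alone on chromatin accessibility in resting bone marrow-derived macrophages (BMDMs), which had received no LPS. It was followed in 6 of the 18 libraries of the series, 3 labelled IL-10 and 3 labelled unstimulated, and the libraries were chosen by their labels. BMDMs were grown for 6 days from the bone marrow of 3 Il10-/- mice on the C57BL/6J background, which were male and 12 weeks old, in medium conditioned by L929 cells, a fibroblast line that secretes the growth factor M-CSF. All 18 libraries carry the Il10 deletion, so that these cells make no IL-10 of their own. IL-10-treated BMDMs received 10 ng/mL IL-10 for 12 hours and then PBS for 4 hours, 16 hours in all, while unstimulated BMDMs received no IL-10 before the same PBS control. The 12 other libraries came from cells given 500 nM (+)-JQ1, an inhibitor of BET bromodomain proteins, 50 ng/mL LPS for the last 4 hours, LPS after (+)-JQ1, or LPS after IL-10. Each condition has 3 libraries.

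IL-10 is an anti-inflammatory cytokine that macrophages both make and sense. Its receptor, built of the Il10ra and Il10rb chains, activates the kinases JAK1 and TYK2, which phosphorylate the transcription factor STAT3, and STAT3 then binds DNA and induces genes such as Socs3, a feedback inhibitor of cytokine receptors. In macrophages the pathway is best known for limiting the inflammatory genes that LPS induces through Toll-like receptor 4. In ATAC-seq a transposase inserts adapters into open DNA, and reads accumulate over a region the more accessible it is.

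The 6 libraries held between 12020526 and 21847467 counts in peaks, with lower totals in the 3 unstimulated libraries (12020526, 15808647 and 17586208) than in the 3 IL-10 libraries (20541878, 20738293 and 21847467). Of 194284 peaks, 194230 passed the filter on low counts, 157564 of them distal and 36666 promoter by the classes the authors deposited. Replicates varied more than sampling noise alone, with a chi-square per degree of freedom between 1.91 and 4.21. All 12 macrophage markers had an accessible promoter peak, and Cd3e, Cd3d, Cd3g, Cd4 and Cd8a of T cells and 4 of 5 mast cell and basophil markers had none. A promoter peak was present for the other 3 of 8 T cell, 5 of 7 B cell and 6 of 9 neutrophil markers. All 7 dendritic cell, 4 of 5 erythroid and 2 of 6 fibroblast markers had one too, so its presence alone does not separate the cell types. The summed promoter level of the macrophage markers was 141 to 220 CPM per kb (counts scaled to the TMM-adjusted library size, per length) in unstimulated libraries and 224 to 250 with IL-10, while that of the T cell markers was 10.6 to 13.3 and 12.4 to 13.4. In the same order, these sums were 8.68 to 9.58 and 7.51 to 9.27 for B cell, 19.1 to 29.9 and 30.2 to 33.8 for neutrophil, 37.3 to 46.9 and 48.5 to 49.9 for dendritic cell, 3.19 to 3.79 and 3.71 to 4.16 for mast cell and basophil, 10.7 to 14.4 and 11.0 to 14.1 for erythroid, and 6.11 to 6.72 and 6.21 to 6.70 for fibroblast markers. Their part in the results was not tested, and in bulk samples a change in the share of cells and a change of accessibility in each cell cannot be told apart.

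Regions below are given in the mm9 build. The full palindromic STAT3 motif TTCCNGGAA lay somewhere in the peak at 4 of the 12 largest reproducible rises, and 0 of the 12 largest falls did. The motif was present in 4.16% of all 194230 tested peaks, and in 6.69% of the distal peaks with at least 50 mean normalized counts, a minimum these regions passed. Among all distal regions that passed the criteria given below, it was in 7.84% of rises and 6.82% of falls. The general STAT motif TTCNNNGAA lay in 5 of the same 12 rises and 6 of the 12 falls, against 31.1% of all tested peaks. The 4 sites are shown with 10 bases on either side, 5' to 3' on the plus strand, with the motif in capitals, because they mark where in these long peaks the STAT3 letters lie. They were searched for after the regions were known.
Il4ra, chr7:132726288-132726316: catgccctagTTCCTGGAAcctgtgcaca
Ly86, chr13:37532692-37532720: aacctcggccTTCCAGGAAcctagcaaac
Csf3r, chr4:125681574-125681602: tgacagatacTTCCAGGAActtatttgca
Socs3, chr11:117830543-117830571: cgccccccgaTTCCTGGAActgcccggcc
The Socs3 site lay 66 bases from the middle of its peak, that of Ly86 245, that of Csf3r 631 and that of Il4ra 907 bases. A match to these letters is a description of the sequence and not a measurement of binding.

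The middle 200 bases of the leading rise and the leading fall, near Il4ra and Cd36, are shown to give the sequence at the centre of each peak. Neither stretch holds TTCNNNGAA, the general STAT motif, so no letter is in capitals.
Il4ra, chr7:132727109-132727308: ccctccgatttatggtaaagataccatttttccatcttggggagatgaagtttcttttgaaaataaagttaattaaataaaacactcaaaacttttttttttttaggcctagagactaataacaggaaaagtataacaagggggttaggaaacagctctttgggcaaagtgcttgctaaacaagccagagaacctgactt
Cd36, chr5:17281232-17281431: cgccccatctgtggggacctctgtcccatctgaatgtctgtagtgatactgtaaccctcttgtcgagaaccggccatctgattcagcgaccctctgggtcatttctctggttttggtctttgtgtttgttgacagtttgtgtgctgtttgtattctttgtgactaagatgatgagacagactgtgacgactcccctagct

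Treatment with IL-10 alone raised accessibility strongly at a limited number of loci, led by Il4ra, Socs3 and Ctsc. It lowered accessibility at fewer strong regions, led by those near Cd36. Differentially accessible regions (DARs) were called at an FDR below 0.05 where the |log2 fold-change| exceeded 0.5, and those exceeding 1 were termed high magnitude. At distal sites 6812 DARs were higher and 6120 lower, of which 669 and 4370 were of high magnitude. At promoters 3199 were higher and 732 lower, of which 78 and 367 were of high magnitude. Over all tested peaks, DARs thus made up 5.15% higher and 3.53% lower, and high magnitude DARs 0.385% higher and 2.44% lower. These splits depended on how libraries were scaled. With total counts in place of TMM factors there were 2084 distal DARs higher and 14437 lower and 385 promoter DARs higher and 2268 lower, whereas loess offsets gave 2505 and 2663 distal and 310 and 757 promoter DARs. They depended on single libraries too. Without unstimulated replicate 3, distal high magnitude DARs numbered 1511 higher and 7481 lower, and without unstimulated replicate 1 the lower ones numbered 1150.

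Most high magnitude falls lay in weak peaks. Of the 4737 high magnitude DARs that fell, 98.9% had a mean below 50 normalized counts over the 6 libraries, and their median was 18.3, whereas of the 747 that rose 43.6% were below 50 and the median was 57.8. In the quartile of tested peaks with the fewest counts the median log2 fold-change was -0.31, and in the next quartiles it was -0.21, -0.04 and 0.26. With total counts these medians were -0.52, -0.42, -0.25 and 0.06, and under loess offsets, which remove a trend with peak strength, -0.05, -0.05, -0.03 and 0.00. The ratio of distal to promoter counts, which needs no scaling between libraries, was 0.54, 0.42 and 0.26 on the log2 scale in unstimulated libraries and 0.21, 0.22 and 0.19 with IL-10. All 3 IL-10 values lay below all 3 unstimulated ones, by a mean of 0.41 ± 0.14 against 0.20 ± 0.015 (SD, n = 3), and the exact two-sided permutation test gave p = 0.1, the smallest it allows with 3 libraries against 3. With median counts per peak in place of sums, the ratio was -1.39, -1.47 and -1.62 in unstimulated libraries and -1.68, -1.62 and -1.68 with IL-10, the groups overlapped, and the exact permutation test gave p = 0.2. The spread of the unstimulated libraries in the summed ratio was wider than that of the IL-10 libraries.

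**Figure D1:**
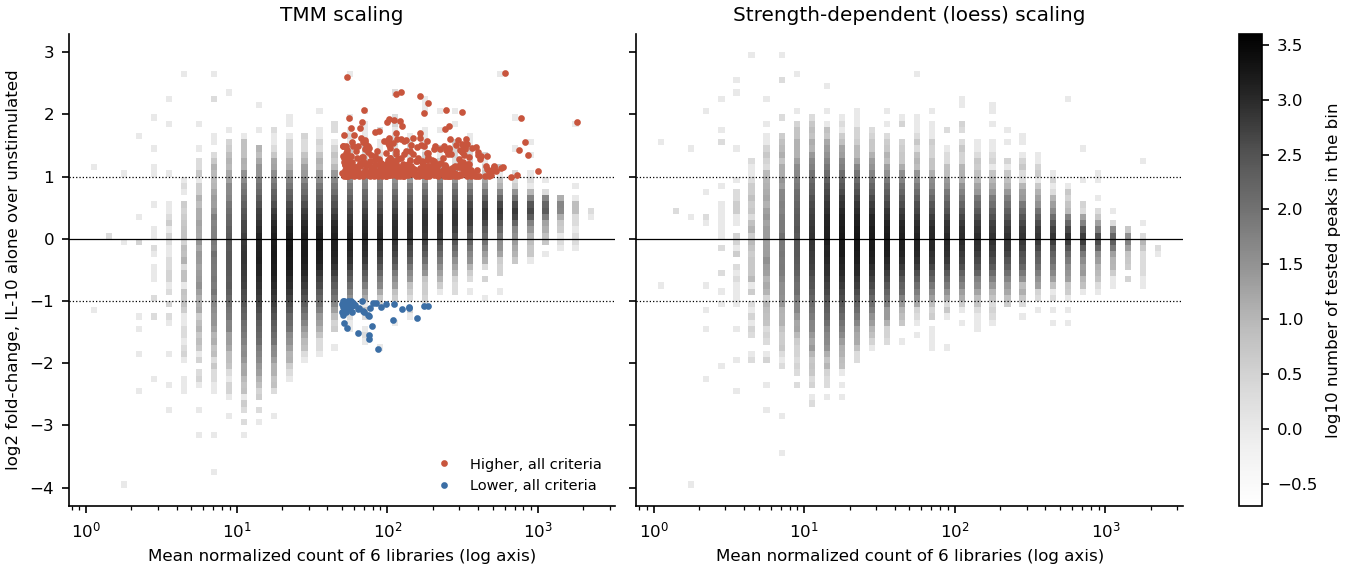
Log2 fold-change of IL-10 alone against unstimulated cells (y axis) by mean normalized count of the peak (x axis, log scale), with TMM scaling and with loess offsets in separate panels, where coloured points on the TMM panel are the regions that passed every criterion. High magnitude falls crowd the low counts, where 98.9% of them lie below 50, and the downward slope at weak peaks is flat under loess offsets.

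Regions whose call and direction did not turn on the scaling were therefore selected. These were high magnitude DARs with at least 50 mean normalized counts, a change of the same sign in 3 of 3 pairs of libraries with the same replicate number (which the sources do not tie to a mouse), and an FDR below 0.05 in the same direction with total counts and with loess offsets. Among 747 rises, 420 passed every criterion (370 distal and 50 promoter), and among 4737 falls 50 did (44 distal and 6 promoter), which is 0.216% and 0.0257% of tested peaks. The count minimum removed most of the falls, leaving 52. All 420 rises and 49 of the 50 falls had no overlap between the 3 IL-10 and the 3 unstimulated libraries, where 13.7% of tested peaks did so upwards and 12.3% downwards. The choice of regions by these same 6 libraries largely fixes this separation, here and at the regions named below, so it is a description and not support. The median log2 fold-change was 1.15 for the rises and -1.10 for the falls. The size cut was applied with TMM factors only. With total counts the medians were 0.95 and -1.32, and with loess offsets 1.04 and -1.15, so the sizes still depended on the scaling. Of the rises, 216 were intergenic, 130 intronic, 36 over an exon without UTR and 38 over an exon with UTR, and of the falls 31, 9, 6 and 4. Leaving out any 1 of the 6 libraries left 407 rises and 42 falls called each time, and 399 and 40 were called at an FDR below 0.05 under all 17 alternatives, of which total counts and loess offsets were part of the selection. A stricter test against a |log2 fold-change| of 0.5 (glmTreat), which is not among the 17, called 289 of the 420 rises and 12 of the 50 falls.

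Il4ra, which encodes the receptor chain shared by IL-4 and IL-13, and its neighbour Il21r, the IL-21 receptor, held the regions with the largest rises. The intergenic region at chr7:132726120-132728297, 19.1 kb from the nearest Il4ra start, had 128, 194 and 169 normalized counts in unstimulated libraries and 1009, 1029.6 and 1098 with IL-10. The groups did not overlap, and the log2 fold-change was 2.67 ± 0.15 (SE), with an adjusted p of 1e-29. The neighbouring region at chr7:132728854-132729465, 17.8 kb from Il21r, rose from 13.7, 21.4 and 10.2 counts to 81.1, 82.9 and 114, a log2 fold-change of 2.61 ± 0.28 (adjusted p = 2.8e-12). The broad peak at chr7:132714615-132725974, over exons and UTR of Il4ra, had the most counts of the locus, with 769, 762 and 803 in unstimulated libraries and 2937, 2675 and 2971 with IL-10, a log2 fold-change of 1.88 ± 0.14 (adjusted p = 2e-20). Regions passing every criterion were joined into loci where they lay within 50 kb of each other, a rule set after their values were seen. At Il4ra, 11 of them lay in 91.1 kb that reaches towards Nsmce1, a subunit of a DNA repair complex, and of 28 tested peaks in the span 13 were DARs higher and 0 lower. The other 8 regions of the locus had log2 fold-changes between 1.07 and 1.89.

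Socs3, the STAT3-induced feedback inhibitor, was the second locus by number of regions, with 8 in 35.7 kb. Its promoter peak at chr11:117830075-117830906, which overlaps the start of the gene and its exon and UTR, had 282, 323 and 354 counts in unstimulated libraries and 1104, 1265 and 1329 with IL-10. The IL-10 values were all above the unstimulated ones, with a log2 fold-change of 1.95 ± 0.14 (adjusted p = 1.2e-20). The region over the gene's exon and UTR at chr11:117825774-117828493 rose from 120.4, 121 and 128 counts to 463, 491 and 557, by 2.03 ± 0.16 (adjusted p = 1.5e-18). Beyond it, the intergenic region 5.43 kb from the start rose from 377, 389 and 477 to 1141, 1298 and 1230.2 counts. Of 27 tested peaks within 25 kb of Socs3, 15 were DARs higher and 0 lower, including intronic peaks of the neighbouring Pgs1, which makes a phospholipid precursor of mitochondria.

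Ctsc, which encodes the lysosomal protease cathepsin C, had 7 regions in 32.6 kb, and all 8 tested peaks in that span were DARs higher. The log2 fold-changes of the 7 regions ran from 1.02 to 1.44, the highest at the exonic region chr7:95446021-95451589, with 172, 122 and 119.9 counts in unstimulated libraries and 375, 363 and 378 with IL-10. The groups did not overlap at this region. Fcgr2b, the inhibitory receptor for IgG, had 4 regions in 33.0 kb and 10 of 13 tested peaks as DARs higher. Its intergenic region chr1:172884597-172887690 rose from 95.6, 66.2 and 81.3 counts to 243, 208 and 294, by 1.62 ± 0.16 (adjusted p = 1.5e-13). Fcgr genes have near-identical copies, so reads could be missing there or misplaced between them. Other loci with at least 4 regions included Rab3il1 and Fads3, a member of the fatty acid desaturase family, with 5 regions in 31.6 kb, Ddr1 and Ier3 with 4 in 60.5 kb, and Gcnt2 and Pak1ip1 with 4 in 40.9 kb. The 420 rises formed 337 loci, of which 42 held more than 1 region and 8 at least 4.

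**Figure D2:**
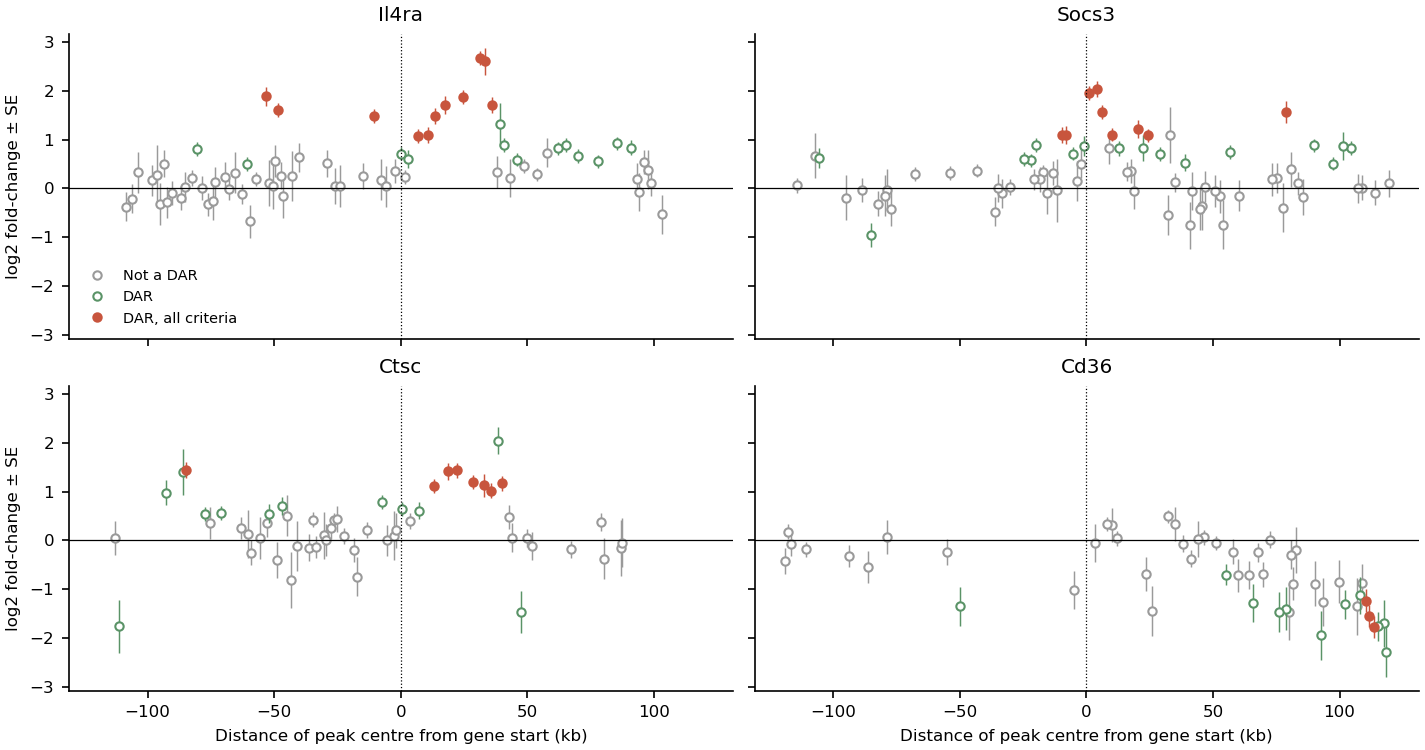
Log2 fold-change of IL-10 alone against unstimulated cells (y axis) at each tested peak by distance in kb from the outermost annotated start of Il4ra, Socs3, Ctsc and Cd36 (x axis), with peaks that passed every criterion marked. Within 120 kb on either side, 24 of 72 tested peaks at Il4ra, 24 of 74 at Socs3 and 18 of 56 at Ctsc were DARs higher. In the same order, 0, 1 and 2 were DARs lower. At Cd36, 14 of 51 were DARs lower and 0 higher. Of these 14, 3 passed every criterion, and most of the others were below 50 mean counts.

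The other regions among the 12 with the largest rise lay at genes of varied function. An intronic region of Htr7, a serotonin receptor, at chr19:36092113-36093210 rose from 55.8, 28.5 and 36.6 counts to 170.5, 258 and 186, by 2.36 ± 0.21 (adjusted p = 9.8e-16). The intergenic region chr12:36102462-36103275, 109 kb from Ahr, the aryl hydrocarbon receptor, had 37.2, 38.7 and 37.6 counts against 199.7, 189 and 179 with IL-10, a log2 fold-change of 2.32 ± 0.19 (adjusted p = 1.5e-18). Neither pair of groups overlapped. Near Ly86, which encodes the partner MD-1 of the receptor RP105, the region chr13:37532241-37533660 rose from 47.2, 89.7 and 62.0 to 284, 285 and 345 counts, by 2.18 ± 0.18 (adjusted p = 1.8e-18). The authors class it as promoter, but in the annotation used here it is intergenic and 95.7 kb from the nearest Ly86 start. At Csf3r, the receptor of G-CSF, the intergenic region chr4:125680037-125681875 had 75.7, 83.5 and 122 counts without IL-10 and 388, 396 and 401 with it, a log2 fold-change of 2.06 ± 0.16 (adjusted p = 4.5e-20). Intergenic regions nearest to Mrps30, Tbc1d1, Plcl2 and Slc39a14, the last a zinc and iron transporter, rose by 2.29 ± 0.20, 2.07 ± 0.24, 2.01 ± 0.18 and 1.94 ± 0.25. All 12 rises were called under all 17 alternatives.

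Promoter peaks made up 50 of the 420 rises. Among the 10 with the largest rise, beside those at Ly86, Socs3, Il4ra and Ctsc, was a peak over an exon of Bcl3, an atypical I-kappaB protein that IL-10 is known to induce. It had 349, 418 and 455 counts in unstimulated libraries and 1086, 1134 and 1078 with IL-10, a log2 fold-change of 1.43 ± 0.14 (adjusted p = 4.9e-14). Promoter peaks at Tspo, a mitochondrial outer membrane protein, and Zmynd8, a chromatin reader, rose by 1.44 ± 0.15 and 1.44 ± 0.23. The one at Ctns, the lysosomal cystine transporter, rose from 38.5, 42.8 and 31.5 counts to 96.6, 109 and 114 (adjusted p = 2.7e-06). Their groups did not overlap.

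Falls that passed every criterion were fewer than rises. The largest clustered outside but nearest to Cd36, the scavenger receptor that takes up oxidized lipoproteins and fatty acids. The intergenic region chr5:17280609-17282053, 60.4 kb from the nearest Cd36 start, had 146, 126 and 132 counts in unstimulated libraries and 36.5, 37.0 and 44.4 with IL-10. Its groups did not overlap, and the log2 fold-change was -1.77 ± 0.23 (adjusted p = 6.2e-09). The next 2 regions, at chr5:17282207-17283657 and chr5:17283683-17285287, had log2 fold-changes of -1.55 ± 0.23 and -1.23 ± 0.24. None of the 3 regions overlapped a protein-coding gene. Within 120 kb of Cd36, 14 of 51 tested peaks were DARs lower and 0 higher. Only 3 of the 14 passed every criterion. Mean counts of the others ran from 11.7 to 71.2, and most were below 50. The peaks with the most counts in this window lay 32.2, 51.1 and 8.20 kb from the outermost annotated Cd36 start. They were not DARs, with log2 fold-changes of 0.49, -0.05 and 0.33. Entpd1, which encodes the ATP-degrading ectoenzyme CD39, had 2 neighbouring regions among the 12 largest falls. The one at chr19:40818003-40820270 fell from 138, 141 and 184 counts to 59.3, 58.6 and 69.7, a log2 fold-change of -1.30 ± 0.22 (adjusted p = 7.6e-06), and the other had -1.24 ± 0.23.

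Single regions fell near several other genes. The intergenic region chr1:192983253-192985983, 4.08 kb from Fam71a and within 25 kb of Atf3, a stress-induced repressor of inflammatory genes, had 149, 203 and 314 counts in unstimulated libraries and 78.4, 89.3 and 109 with IL-10, a log2 fold-change of -1.27 ± 0.17 (adjusted p = 1.8e-08). Near Alcam, a cell adhesion molecule, the region chr16:52245797-52249012 had 93.1, 64.2 and 78.2 counts against 27.4, 39.7 and 19.2, a log2 fold-change of -1.44 ± 0.26 (adjusted p = 9.7e-05). At Ch25h, which makes the sterol 25-hydroxycholesterol, the region chr19:34563273-34563946 had 54.6, 74.4 and 94.5 counts against 29.2, 33.4 and 25.3, a log2 fold-change of -1.35 ± 0.27 (adjusted p = 0.0002), and it lost its call in 1 of 17 alternatives. All 3 pairs of groups were separate. The promoter peak of Ldlrad3, a protein of the low density lipoprotein receptor class, fell by 1.22 on the log2 scale, from 79.4, 73.4 and 61.0 counts to 35.6, 26.1 and 29.6. The regions nearest to Gm16503, Pigy and Gm7112 had log2 fold-changes of -1.61 ± 0.22, -1.52 ± 0.20 and -1.40 ± 0.23. Gm16503 belongs to a predicted gene family with copies, so reads could be missing there or misplaced between copies. The 50 falls formed 45 loci, and the 4 with more than 1 region were Cd36, Entpd1, Fzd5 and Tgfbr1. With (+)-JQ1 alone against the same 3 unstimulated libraries, many of the 12 largest falls were lower too. The log2 fold-changes were -0.64, -0.84 and -0.69 at the Cd36 regions, -1.90 and -1.32 at Entpd1 and -1.16 at Ldlrad3. Near Gm16503, Pigy and Fam71a they were -0.67, -0.74 and -0.68. All of these passed an FDR of 0.05, and those at Alcam (-0.29), Gm7112 (-0.60) and Ch25h (-0.31) did not. Among the 12 largest rises, values with (+)-JQ1 alone passed at Slc39a14 (1.65), Ahr (1.29), Csf3r (0.65) and the Socs3 promoter (0.64), and the others did not. The same unstimulated libraries helped to choose these regions, so a shared direction is partly fixed by the choice. The share of all tested peaks that changed with (+)-JQ1 is not given here.

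**Figure D3:**
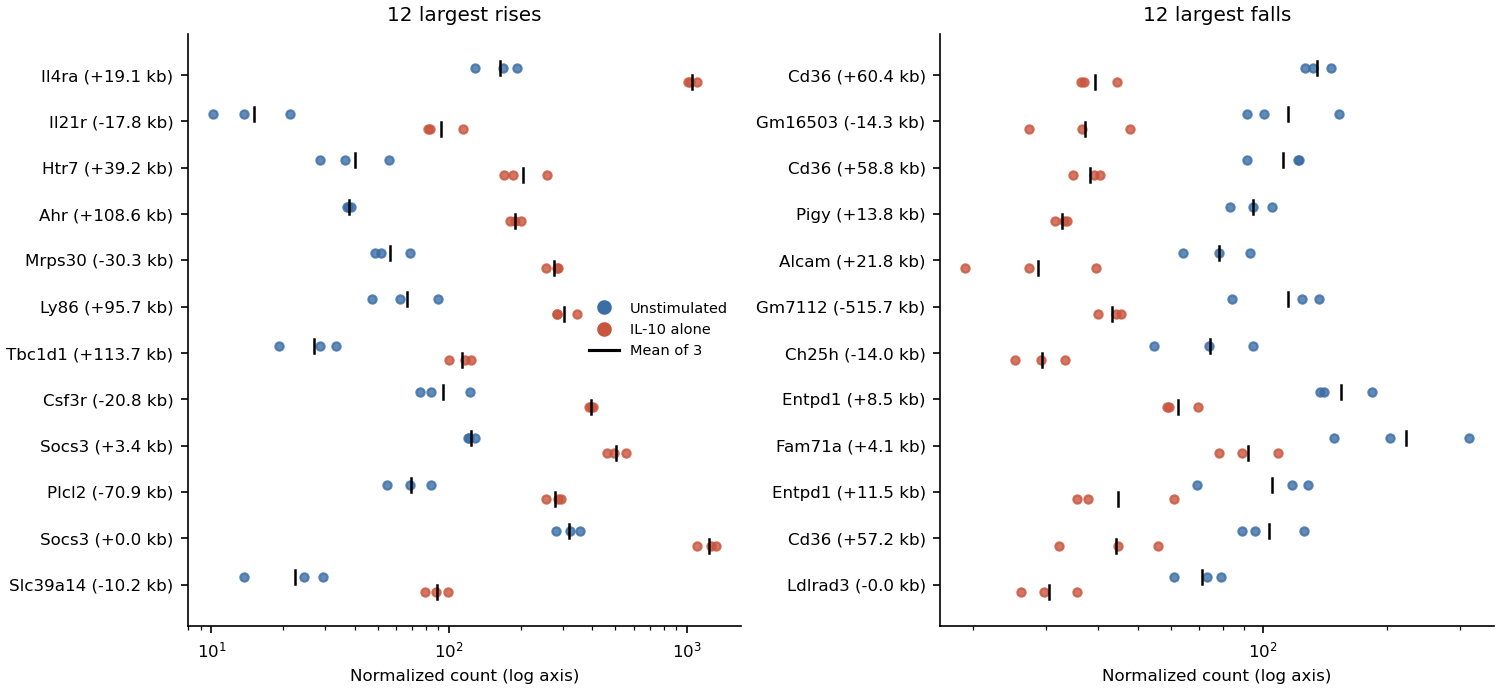
Normalized counts (log scale) in each of the 3 unstimulated and 3 IL-10 libraries at the 12 largest rises and 12 largest falls that passed every criterion, 1 point per library. The groups were separate at all 24 regions, which the choice of regions by these same libraries largely fixes. Group means of the rises lay between 15.1 and 319 counts without IL-10 and between 88.6 and 1233 with it.

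Counted by gene, the high magnitude DARs within 25 kb of a start had Il4ra, Socs3 and Ctsc as leading rises again. Il4ra with Il21r had 9 of 17 tested peaks, Socs3 with Pgs1 8 of 27, Ctsc 8 of 22 and Fcgr2b 6 of 26, and DARs lower were 0 at each of these. The leading falls by this count lay at other genes than the strong falls. Chi3l3, the chitinase-like protein Ym1 of alternatively activated macrophages, had 13 of 31 tested peaks as high magnitude DARs lower, with log2 fold-changes between -2.08 and -1.05, and all 13 were below 50 mean counts. Alcam had 10 of 65, Gm16387 9 of 16, Smok2a with Smok2b 8 of 11 and Prdm16, a zinc finger regulator, 7 of 20, of which 9, 9, 7 and 7 were below 50 counts. Copies of Chi3l3, Gm16387 and Smok2 exist, so reads could be missing there or misplaced between copies.

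Of 10 lists of genes, chosen with earlier results of these data known, those of STAT3 response genes and of Fc receptor and complement genes had the highest shares of peaks that rose. The STAT3 list holds Il4ra, Il21r and Socs3, the leading loci above, so its share is a description and not independent support. A list's peaks are its promoter peaks and the distal peaks within 25 kb of a start, and all tested peaks had a median log2 fold-change of -0.05. Of 531 peaks of 34 genes induced by IL-10 or STAT3, 104 were DARs higher (19.6%) and 8 lower, where 5.15% of all tested peaks were higher. Their median was 0.23, but 0.025 with total counts and 0.12 with loess offsets. Besides Il4ra, Il21r and Socs3, the gene with the largest change was Saa3, an acute phase protein. Its region rose from 151, 149.8 and 191 counts to 414, 530.1 and 458, by 1.51 ± 0.15 (adjusted p = 6.2e-14). Saa genes have copies, so reads could be missing there or misplaced between them. Of 225 peaks of Fc receptor and complement genes, 46 were DARs higher (20.4%) and 1 lower, with a median of 0.28 that was 0.066 with total counts and 0.16 with loess offsets. Itgam, the complement receptor chain CD11b, had an intronic region that rose by 1.32 ± 0.22, and regions at Fcgr3 and Fcer1g, an IgG receptor and its signalling chain, rose by 0.88 ± 0.15 and 0.88 ± 0.16.

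The IL-10 receptor and its signal transducers gave 40 DARs higher (10.6%) and 5 lower (1.33%) among 376 peaks, with a median of 0.10 that was -0.10 with total counts. Il10ra had 1 DAR higher of 18 peaks, and its promoter peak had 266, 338 and 367 counts in unstimulated libraries and 382, 387 and 391 with IL-10, a log2 fold-change of 0.25 ± 0.14 (adjusted p = 0.24). The 17 peaks of Il10rb had log2 fold-changes between -0.31 and 0.49, all below the size of a DAR, and its promoter peak had 408, 423 and 595 counts against 661, 577 and 682, a log2 fold-change of 0.43 ± 0.14 (adjusted p = 0.033). Stat3 itself had 4 DARs higher of 41 peaks. The largest, intergenic at chr11:100813148-100814125 and 12.8 kb from the start, rose from 47.2, 52.0 and 73.2 counts to 193, 162 and 173, by 1.60 ± 0.18 (adjusted p = 1.8e-11). At Il10, the deleted gene, 1 of 20 tested peaks was a DAR higher and 1 lower, with log2 fold-changes of 0.59 ± 0.14 and -0.72 ± 0.19, and the promoter peak had 0.16 ± 0.19.

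**Figure D4:**
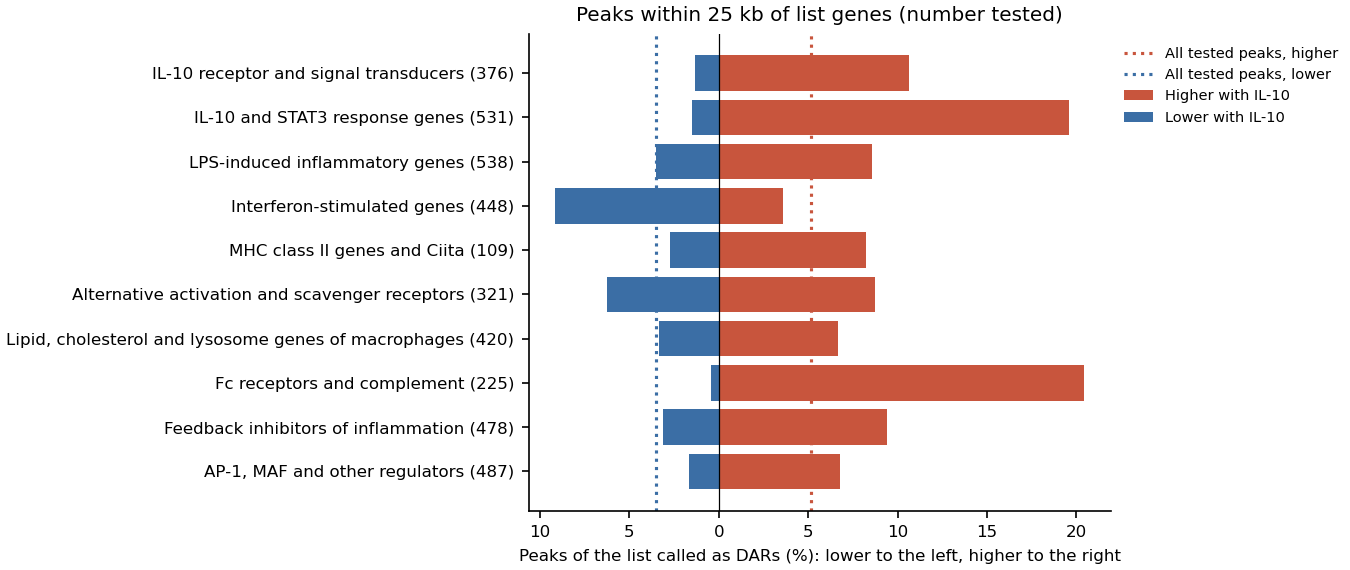
Percent of tested peaks called as DARs higher and lower with IL-10 alone (x axis) in each of 10 gene lists (y axis), beside the same over all tested peaks. STAT3 response genes (19.6%) and Fc receptors and complement (20.4%) had the highest shares of rises, and interferon-stimulated genes (9.15%) the highest share of falls.

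Interferon-stimulated genes were the list with the most falls. Of 448 peaks of 27 genes, 41 were DARs lower (9.15%, against 3.53% of all tested peaks) and 16 higher, with a median of -0.21, and -0.24 with loess offsets. Most of the regions named here were weak. At Ifit1, an antiviral protein that binds foreign RNA, the region had 17.4, 12.2 and 19.3 counts without IL-10 and 3.65, 2.70 and 4.36 with it, a log2 fold-change of -2.15 ± 0.46 (adjusted p = 0.00076), and at Gbp2, a guanylate-binding GTPase, the log2 fold-change was -1.76 ± 0.37. The 10 MHC class II genes and Ciita gave 9 DARs higher (8.26%) and 3 lower (2.75%) of 109 peaks, with a median of 0.16 that was -0.05 with total counts.

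LPS-induced inflammatory genes, the genes whose expression IL-10 is known to limit, gave 46 DARs higher (8.55%) and 19 lower (3.53%) of 538 peaks, with a median of -0.03. The regions named there by their size moved in both directions and were weak in resting cells. At Il1b a promoter peak had 12.4, 3.06 and 12.2 counts without IL-10 and 24.6, 27.0 and 34.0 with it, a log2 fold-change of 1.65 ± 0.35 (adjusted p = 0.00062). At Il12a, a subunit of IL-12, a distal region had 29.8, 15.3 and 14.2 counts against 4.56, 7.21 and 2.61, with an adjusted p of 0.006, and at Il6 and Ccl22 regions had -1.60 ± 0.55 and -1.58 ± 0.50. The remaining lists had medians between 0.00 and 0.01. They are read against the 5.15% higher and 3.53% lower of all tested peaks. Alternative activation and scavenger receptor genes gave 28 DARs higher (8.72%) and 20 lower (6.23%) of 321 peaks, and feedback inhibitors 45 (9.41%) and 15 (3.14%) of 478. Lipid and lysosome genes gave 28 (6.67%) and 14 (3.33%) of 420 peaks, and AP-1, MAF and other regulators 33 (6.78%) and 8 (1.64%) of 487, so that the shares of rises of both were near that of all peaks. In the last list Fosl2, a subunit of AP-1, had a promoter peak that rose from 74.5, 95.8 and 89.4 counts to 171, 171 and 193, by 1.04 ± 0.17 (adjusted p = 4.1e-06).

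Sequence motifs were counted in the middle 500 bases of the regions on both strands. The STAT motif TTCNNNGAA was present in 107 of the 370 distal rises that passed every criterion (28.9%, 95% Wilson interval 24.5 to 33.7, which covers counting error only), against 14.7% of all 157564 distal peaks and 15.01% of those with at least 50 counts. Over whole peaks these shares were 51.6%, 30.4% and 46.0%. The narrower TTCCNGGAA, each match of which is also a match to TTCNNNGAA, was present in 4.86% against 1.56%. The PU.1 motif GAGGAAGT was present in 12.2% against 6.98%, the NF-kappaB motif GGGNNTTTC in 11.9% against 7.10%, and the AP-1 motif TGANTCA in 21.9% against 19.3%. Over whole peaks, against distal peaks with at least 50 counts, PU.1 was in 23.8% against 21.1%. By that measure NF-kappaB was in 22.4% against 26.3% and AP-1 in 45.7% against 51.9%. Among the 44 distal falls that passed every criterion, 9 held TTCNNNGAA. The IRF motif GAAANNGAA was in 17.3% of the rises against 16.8%, and the CEBP motif TTGCNNAA in 24.9% against 20.5%. The MAF motif TGCTGANTC, which contains part of the AP-1 letters, was in 5.14% against 2.97% and the E-box CACGTG in 6.49% against 6.76%. Over whole peaks, against distal peaks with at least 50 counts, IRF was in 43.0% against 49.2% and CEBP in 54.1% against 56.8%. By that measure MAF was in 12.2% against 11.0% and the E-box in 17.8% against 26.1%.

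The same regions were then read in LPS-stimulated BMDMs, where LPS + IL-10 libraries were compared with LPS libraries, none of which chose the regions. Of the 420 rises, 204 (48.6%) were DARs higher there as well, where 4.25% of tested peaks were, and 4 were DARs lower. Of the 50 falls, 13 (26.0%) were DARs lower, where 4.52% were, and 0 were higher. The median log2 fold-change was 1.15 without LPS and 0.53 with it for the rises and -1.10 and -0.32 for the falls. The difference between the effects with and without LPS passed an FDR of 0.05 at 175 rises with an effect nearer to 0 with LPS, at 11 rises with a larger effect and at 13 falls with one nearer to 0, where 7.92% of tested peaks passed in either direction. Because the regions were chosen for a large effect without LPS, a smaller effect in other libraries is partly fixed by the choice. Leaving out any 1 LPS or LPS + IL-10 library gave 183 to 205 shared rises and 9 to 13 shared falls.

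**Figure D5:**
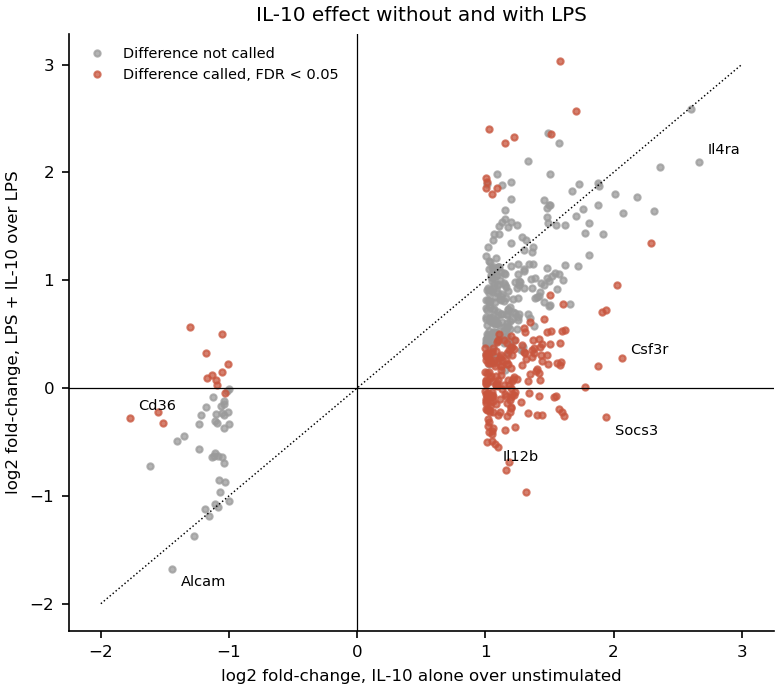
Log2 fold-change of LPS + IL-10 against LPS (y axis) by that of IL-10 alone against unstimulated cells (x axis) at the 470 regions that passed every criterion, 1 point per region, with the line of equal effect. Most rises lie below that line, with median effects of 1.15 and 0.53, while 3 Tgfbi and 2 Il4ra regions, each with a called difference, lie above it and the leading Il4ra region lies below.

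Regions differed in whether the IL-10 effect was present with LPS. At the leading Il4ra region counts were 259.8, 250.1 and 269 with LPS and 1297, 1157 and 878 with LPS + IL-10, a log2 fold-change of 2.10 ± 0.14, and the difference from the effect without LPS did not pass the test (-0.57, adjusted p = 0.064). At the Socs3 promoter, in contrast, LPS libraries had 1417, 1201 and 1201 counts and LPS + IL-10 libraries 1177, 1106 and 899. Both groups lay above all 3 unstimulated libraries, and between them the IL-10 effect did not pass the test (-0.26 ± 0.14, adjusted p = 0.22). The difference from the effect without LPS was -2.21 (adjusted p = 4.9e-15). The Csf3r region likewise had a log2 fold-change of 0.27 ± 0.14 with LPS against 2.06 ± 0.16 without. At the Socs3 region chr11:117825774-117828493 the effect was present with LPS. Counts there were 625, 581 and 605 with LPS and 1240, 1186 and 1088 with LPS + IL-10. The log2 fold-change was 0.96 ± 0.14 (adjusted p = 1.5e-07). Of the 8 high magnitude DARs higher at Socs3, 3 were DARs higher with LPS. At the leading Cd36 region counts were 17.9, 31.5 and 46.5 with LPS and 25.4, 31.2 and 21.3 with LPS + IL-10, both below all 3 unstimulated libraries. The regions near Alcam and Atf3 had log2 fold-changes of -1.68 ± 0.22 and -1.37 ± 0.17 with LPS.

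In 4 of the 420 rises that passed every criterion, all singled out after their values were seen, IL-10 raised accessibility without LPS and lowered it with LPS. Among all 747 high magnitude rises there were 17 such regions. These shares, 0.95% and 2.28%, were below the 4.52% of all tested peaks that were DARs lower in LPS + IL-10 against LPS. One lay 14.8 kb from the start of Il12b, the shared subunit of IL-12 and IL-23, at chr11:44226839-44229989, where unstimulated libraries had 155, 159 and 193 counts and IL-10 libraries 377, 344 and 349, a log2 fold-change of 1.07 ± 0.15 (adjusted p = 3.1e-08). With LPS it had 334, 311 and 274 counts, and 205, 235 and 203 with LPS + IL-10, a log2 fold-change of -0.52 ± 0.14 (adjusted p = 0.0079). In both cases the groups were separate, and the difference between the effects was -1.59 (adjusted p = 1.1e-08). The Il12b promoter peak had 132, 134 and 155 counts without and 166, 197 and 214 with IL-10 alone, a log2 fold-change of 0.45 ± 0.15 that was below the size of a DAR, and -0.52 ± 0.14 with LPS. Of the 18 tested peaks within 25 kb of Il12b, 1 was a DAR higher with IL-10 alone, and the 18 log2 fold-changes ran from -0.78 to 1.07. The 3 others were intronic regions of Fut8, Thada and Kif5c, with 1.16 ± 0.18, 1.32 ± 0.22 and 1.19 ± 0.22 without LPS and -0.76 ± 0.18, -0.97 ± 0.20 and -0.68 ± 0.21 with it.

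The 11 regions with a larger effect with LPS included 3 at Tgfbi, which encodes an extracellular matrix protein induced by TGF-beta, and 2 at Il4ra. The Tgfbi region chr13:56741111-56742201 had 33.5, 39.7 and 33.5 counts in unstimulated libraries, 112, 115 and 94.1 with IL-10, 11.1, 26.9 and 21.0 with LPS and 152, 184 and 146 with LPS + IL-10. Its log2 fold-change was 1.58 ± 0.23 without LPS and 3.03 ± 0.24 with it, and the difference passed the test (adjusted p = 0.0022). The broad peak over the start of C9, a complement component, which also overlaps Dab2, had 374, 311 and 406 counts in unstimulated libraries and 875, 741 and 809 with IL-10. With LPS it had 122, 132 and 103 counts, and 558, 612 and 559.7 with LPS + IL-10, so that the log2 fold-change was 1.15 ± 0.14 without and 2.27 ± 0.15 with LPS. All 4 groups were separate at the Tgfbi region and at the C9 peak. The other regions of this kind were nearest to D1Bwg0212e, Rnf149, Slc25a15, Cdh1 and Gngt2.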

How the data were processed

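Chromatin accessibility was measured in 18 ATAC-seq libraries, of which the 3 IL-10 and 3 unstimulated libraries are the subject. The authors used uniquely mapped reads, aligned to mm9 with Bowtie2 in PEPATAC 0.9.0. They called peaks per library with MACS2, joined them and deposited raw counts per peak, classed as promoter or distal with ChIPseeker. The shift of reads for the transposase, and how reads were counted, are not given in the sources used here. Another 6 columns of the table match no described sample and were not used.

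Peaks were filtered (filterByExpr), scaled by TMM and tested with edgeR 4.0.16 (quasi-likelihood, robust, R 4.3.3, limma 3.58.1) in 1 fit of the 18 libraries, with Benjamini-Hochberg adjustment over 194230 peaks. Normalized counts are counts scaled to the geometric mean of the TMM-scaled library sizes of the 18 libraries. Errors of fold-changes are standard errors. P-values measure the spread between cultures from 3 mice. The sources do not tie a replicate number to a mouse.

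Named are the 12 largest rises and 12 largest falls that passed every criterion, the 5 genes with the most high magnitude DARs in each direction, up to 4 genes per list by their largest change, the receptor genes, Stat3, Socs3, Il10 and Il12b, except that some items are not reported here. The members and lists were chosen with earlier results of these data known. Genes and exons came from GENCODE M1. On simulated counts of 194098 peaks for this comparison, the test recovered 100% of log2 changes of 2 in either direction, 54% of those of 1 upwards and 58% downwards. Each change was put into 50 peaks with at least 50 mean counts, at a fixed dispersion and without a trend with peak strength. The rates thus do not cover weaker peaks, where most high magnitude falls lay.

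DESeq2 1.42.0, other scalings, filters, designs and left-out libraries were tried as alternatives. Fits with an added replicate block on the 6 libraries alone were chosen after seeing the data.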

Additional observations from a re-analysis of the deposited data

Results flagged for a closer look

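Of 75 regions tested by name, 24 had an IL-10 effect that differed between BMDMs with and without LPS. Each passed an FDR below 0.05 in edgeR's interaction test, where 7.92% of all tested peaks passed. At all 24 the effect was nearer to 0 or of opposite sign with LPS. Values below are the log2 fold-change of LPS + IL-10 against LPS minus that of IL-10 alone against unstimulated cells. The choice of these regions by their effect without LPS fixes part of that direction.

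Among rises, the difference was -2.21 at the Socs3 promoter and -1.07, -1.33, -0.83 and -1.23 at the Socs3 regions 3.37, 5.43, 9.26 and 23.5 kb from its start. It was -0.87 at the intronic Pgs1 region beside them. It was -1.79 at Csf3r, -1.22 at Slc39a14, -0.95 at Mrps30 and -1.05 at Itgam. At Stat3 it was -0.65 at the promoter peak and -1.05 at the region 9.91 kb from the start. Near Il1b it was -2.54 and near Il12b -1.59, where the effect with LPS was a fall. The values were -0.64 at the Saa3 region nearest to Saa4 and -0.97 at the H2-Eb1 region nearest to H2-Aa.

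Among falls, the difference was 1.49 and 1.33 at the 2 leading Cd36 regions and 1.91 at a weaker exonic Cd36 region. It was 1.86 at Entpd1, 1.19 at Pigy, 2.52 at Oas1a, 2.38 at Chi3l3 and 2.17 at the Trem2 region nearest to Treml1. The Oas1a, Chi3l3 and Trem2 regions had under 50 mean counts.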

How the results depend on the processing

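Named regions kept their direction, and summary values kept neither their size nor, in part, their sign. Over 25 summary results and 346 alternatives, 221 values stayed within the limits set and 125 moved. With total counts the medians of the receptor, MHC class II, alternative activation, lipid, feedback and AP-1 lists turned from positive to negative, and distal DARs from more rises than falls to more falls. Over 75 named regions and 1401 values, 1250 gave the same call, 151 lost it and 0 reversed. The 420 rises and 50 falls that passed every criterion were 411 and 47 with at least 10 counts in every library and 419 and 50 with DESeq2. Few reads lie behind most high magnitude falls, whose median was 18.3 counts. The test of glmTreat against a |log2 fold-change| of 1 was not run. The causes of these changes were not tested.

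For DARs distal higher, distal lower, promoter higher and promoter lower, in this order (6812, 6120, 3199 and 732), total counts gave 2084, 14437, 385 and 2268. Loess offsets gave 2505, 2663 and 310 for the first 3, at least 10 counts 3905 distal higher and 1090 promoter higher, DESeq2 4069 distal lower and 465 promoter lower, FDR below 0.01 1621 and 172 lower, glmTreat against 0.5 294, 158, 43 and 6, and separate fits of promoter and distal peaks 549 and 2276 at promoters. For high magnitude DARs in the same order (669, 4370, 78 and 367), total counts gave 241, 9396, 26 and 882, at least 10 counts 276, 1339, 31 and 192, loess offsets 1081 and 86 lower, FDR below 0.01 1316 and 98 lower, and separate fits 29 and 881 at promoters.

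High magnitude rises that were also DARs higher with LPS (250) numbered 125 with total counts and 145 with at least 10 counts, and falls (336) 626 with total counts, 159 with loess, 205 with DESeq2 and 77 at FDR below 0.01. Those whose effect differed with LPS (257 rises, 635 falls) numbered 86, 135 at least 10 counts and 161 at FDR below 0.01 for rises, and 2289 with total counts, 131 with loess, 203 with DESeq2 and 95 at FDR below 0.01 for falls. 

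List medians with total counts were -0.10 (receptor), 0.025 (STAT3 response), -0.23 (LPS-induced), -0.42 (interferon), -0.049 (MHC class II), -0.19 (alternative activation), -0.20 (lipid), 0.066 (Fc receptors), -0.20 (feedback) and -0.20 (AP-1). With loess they were 0.033 (receptor), 0.12 (STAT3 response), 0.075 (MHC class II), -0.018 (alternative activation), -0.042 (lipid), 0.16 (Fc receptors), -0.059 (feedback) and -0.042 (AP-1), and with a 10 kb window 0.14, 0.32, 0.20, 0.11 and 0.058 for receptor, STAT3 response, MHC class II, alternative activation and feedback. The STAT motif over whole peaks was in 41.4% of distal high magnitude rises and 23.3% of falls, against 26.3% and 14.7% in the middle. Whole-peak matches were in 51.6% of the distal rises that passed every criterion, against 30.4% of all distal peaks and 46.0% of those with at least 50 counts.

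Leaving out 1 library gave 3410 to 11002 distal and 965 to 8247 promoter DARs higher, 1590 to 9509 and 203 to 1146 lower, and high magnitude DARs of 532 to 1511 and 68 to 205 higher and 1150 to 7481 and 90 to 660 lower. Without unstimulated replicate 3 all these counts were highest, and without unstimulated replicate 1 the lower ones were lowest. Without IL-10 replicates 1 and 3, distal high magnitude falls were 2642 and 2094, and without unstimulated replicate 2 2094. Shared rises were 222 to 429, shared falls 131 to 681 (222 without LPS replicate 1), and effects that differed with LPS 189 to 901 for rises and 204 to 1607 for falls (391 without LPS replicate 1, and 391 without LPS + IL-10 replicate 3). The ratio of distal to promoter counts changed by -0.27 to -0.14. List medians ran from 0.10 to 0.13 (receptor), 0.22 to 0.28 (STAT3 response), -0.034 to 0.038 (LPS-induced), -0.26 to -0.12 (interferon), 0.16 to 0.21 (MHC class II), -0.042 to 0.041 (alternative activation), -0.016 to 0.038 (lipid), 0.24 to 0.29 (Fc receptors), -0.0048 to 0.029 (feedback) and 0.015 to 0.033 (AP-1).

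The sources do not say whether a replicate number marks a mouse. Deviations of same-numbered IL-10 and unstimulated libraries from their group means correlated at r = 0.0046, 0.0016 and 0.061 (mean 0.022, against -0.011 for other pairs). The main test therefore did not pair the libraries by number. Only the selection of regions used same-numbered pairs, for the sign of the change, and this step left 421 of 421 rises and 51 of 52 falls. With the replicate block as a covariate, high magnitude DARs at promoters were 80 higher and 356 lower, and no count moved by over 1.5 times. It changed the call of 1 of 75 named regions.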
